A study of Mus musculus with 18 samples.

Results

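The clustered histone genes are the genes whose symbols start with Hist1h, Hist2h, Hist3h or Hist4h, and 67 of the 32286 features in the deposited count matrices carried such a symbol. By protein they split into 6 genes for the linker histone H1, 18 for H2A, 18 for H2B, 12 for H3 and 13 for H4. In the GRCm38 annotation 54 of them lay in the Hist1 cluster at chr13:21715763-23934851, 10 in the Hist2 cluster at chr3:96219865-96270132, 2 in the Hist3 cluster at chr11:58948920-58956830, and 1, Hist4h4, at chr6:136801553-136804415. Setdb1, the gene inactivated in this study, is also on chromosome 3, at chr3:95323525-95357202, which is 862.7 kb from the nearest Hist2 gene.

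These genes supply the histones that package newly replicated DNA: H2A, H2B, H3 and H4 form the core particle of the nucleosome, and H1 binds the linker DNA between particles. Their messages are made in S phase, have no introns as a rule, and end in a short stem-loop bound by Slbp in place of a poly(A) tail. A few members also make longer, polyadenylated and sometimes spliced messages that do not need DNA replication, which matters here because droplet single-cell libraries capture messages through their poly(A) tracts.

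Single-cell RNA-seq libraries were made from GFP-sorted cells of ileal crypts of male C57Bl6 mice aged 60 to 65 days, 5 days after tamoxifen at 70 mg/kg, given once into the peritoneum. In the Lgr5+ experiment, Lgr5+WT cells came from Lgr5-GFP-CreERT2 mice and Lgr5+Setdb1KO cells from Lgr5-GFP-CreERT2/Setdb1lox/lox mice, so that Cre is driven by the Lgr5 promoter of the stem cells and tamoxifen removes the floxed exon of Setdb1, an H3K9 methyltransferase. The study describes the mature enterocytes, Goblet, Paneth, Tuft and enteroendocrine cells of this sort as co-purifying cells without GFP. It gives the gating and incomplete enrichment as the reason. In the lineage-traced experiment the same genotypes also carried the nTnG reporter in the ROSA locus, whose GFP marks the progeny of cells in which Cre acted. Every group, controls included, received tamoxifen and carried the knock-in Lgr5 allele, which is silenced at random in part of the crypts. Each of the 4 groups has 2 libraries, described by the study as independent biological replicates for the Lgr5+ groups, and the growth label of the libraries names livers while the extract label names the ileum.

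Barcodes with 1000 (Lgr5+) or 500 (lineage-traced) to 18000 UMIs and under 5% mitochondrial UMIs were kept as cells, between 2894 and 11423 in each Lgr5+ library and between 3882 and 10239 in each lineage-traced library. Their median depth was 4686 to 9336 UMIs in the Lgr5+ libraries and 961 to 2085 in the lineage-traced libraries, and any pair of libraries shared between 3 and 34 kept barcodes. The stem cell markers had a median rate of 24.2 and 25.9 UMIs per 10000 in the Lgr5+WT libraries, whose droplets without a cell were at 16.6 and 13.1. In the Lgr5+Setdb1KO libraries the rate was 6.28 and 7.83, near the 6.99 and 6.75 of their own droplets. Among the lineage-traced libraries, WT replicate 2 stood apart, with a median of 0 for the stem markers against 4.88, 14.0 and 7.39 in the others, and markers of Paneth cells took 34.4% and 31.8% of all UMIs of kept cells in WT against 7.44% and 5.06% in Setdb1-KO. Setdb1 itself, counted from its 3′ end and therefore not from the deleted exon, was at 11.3 and 9.93 UMIs per 1000000 UMIs of the library (CPM) in Lgr5+WT and at 5.32 and 6.21 in Lgr5+Setdb1KO, a log2 fold change of −0.85 (edgeR quasi-likelihood test, adjusted p = 0.047). That call was lost without the low-count filter (adjusted p = 0.12), above 2000 UMIs per barcode (0.062), with the replicate block (0.11) and without WT replicate 1 (0.14), WT replicate 2 (0.10) or Setdb1-KO replicate 1 (0.10). In the lineage-traced libraries Setdb1 was at 10.4 and 7.85 CPM in Setdb1-KO and 6.11 and 4.21 in WT over all kept cells. Its fitted log2 fold change was 0.24 over all cells, −0.06 in non-dividing and −0.45 ± 0.42 in replicating cells, and none passed (edgeR adjusted p = 0.60, 0.96 and 0.90), so that count does not check these labels.

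The stem-loop is shown first because it is the mark that defines the class. It was searched as a pattern of 16 bases, with alternative letters allowed at some positions. The search covered the 150 bases after each annotated stop codon, on the strand of the gene, and found it in 64 of the 67 genes. The sequences are from the RefSeq GRCm38.p6 genome, written 5′ to 3′ on the strand of the gene, with the 16 bases of the stem-loop in capitals, for members of each type that the results turn on.

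Hist1h1b, chr13:21779832-21779857 (−): ccaaaGGCTCTTTTCAGAGCCaccta
Hist1h2ap, chr13:21833024-21833049 (−): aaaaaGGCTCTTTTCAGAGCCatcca
Hist1h2ae, chr13:23570663-23570688 (−): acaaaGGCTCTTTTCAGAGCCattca
Hist1h2bc, chr13:23684642-23684667 (+): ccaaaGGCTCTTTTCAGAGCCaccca
Hist1h4h, chr13:23531453-23531478 (+): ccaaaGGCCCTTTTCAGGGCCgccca
Hist1h4i, chr13:22040961-22040986 (−): ttaaaGGCCCTTTTTAGGGCCaccac

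The stem-loop sequences differed by histone. The core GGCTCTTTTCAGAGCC was held by 40 genes, 5 for H1, 15 for H2A, 12 for H2B and 8 for H3, and by no H4 gene. All 13 H4 genes had cores that were not found in any other family, most often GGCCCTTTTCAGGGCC, in 8 of them. Hist2h2be, Hist1h2an and Hist1h2bp had no match in the window, which says only that these letters are not there. For 26 genes at least 1 annotated transcript ran over 100 bases past the stem-loop. The longest such stretch belonged to Hist1h2bc, an H2B gene whose spliced transcript ends 8246 bases of genome beyond its loop, followed by Hist1h1d with 4884 bases. Transcripts of Hist1h1e and Hist1h1c reached 1153 and 840 bases past the loop, while that of Hist1h2ap ended 3 bases after it.

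Near-identical copies limit how far single members can be told apart. Of the 67 genes, 45 shared at least 1 stretch of 50 bases in the last 300 bases of a transcript with another member, and 33 shared over 50% of such stretches. All stretches of Hist1h2ap were shared with Hist1h2ao, all of Hist1h1e lay in the overlapping gene Hist1h2be on the same strand, and all of Hist1h4m were shared with Hist1h4n, so the counts of these genes are uncertain. Hist1h2bc, Hist1h1b, Hist1h1c and Hist1h4i shared none. The last transcript bases of Hist1h2ap held a run of 12 adenines. Genes annotated on the opposite strand overlap Hist1h2ap, Hist1h2ae, Hist1h2an and Hist3h2a.

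The promoters, taken as 250 bases before to 50 after the start from the RefSeq table for GRCm38 and available for 60 members of 32851 entries, were rich in short motifs on either strand. TATAAA was found in 34 (56.7%) of the members against 13.6% of all promoters, and CCAAT in 51 (85.0%) against 37.4%. CCAAT again separated the families, with a match in all 5 H1, 17 H2A, 16 H2B and 10 H3 promoters matched but in 3 of 12 for H4. The octamer ATTTGCAT was found in 7 H2A and 6 H2B promoters and in none of the others, and in 1.74% of all promoters. Windows of H2A and H2B genes that lie back to back overlap, as for Hist1h2ae and Hist1h2bg. The same motif can therefore count for both genes of such a pair. Hist1h2bc has no entry in the table.

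In the Lgr5+ libraries the members held 177874 UMIs, and 64 of the 67 had at least 1. Hist1h2bq, Hist1h2ba and Hist1h2aa had none in either experiment, and 21 members in all were under 1 CPM. The 10 members with the highest mean took 82.3% of the summed CPM. UMIs count molecules caught at the 3′ end and were not divided by gene length, so the order below is one of counts caught and not of transcript number. Hist1h2bc was the highest, with 205 ± 54.0 CPM (SD, n = 4 libraries), followed by Hist1h2ap with 153 ± 43.3, the H1 gene Hist1h1b with 152 ± 15.3, Hist1h1e with 127 ± 20.5 and Hist1h2ae with 101 ± 7.88. In the WT libraries alone Hist1h1b (165 CPM) and Hist1h2bc (162) stood in the reverse order. Neighbors in the order over all 4 overlapped between libraries down to Hist1h1e, Hist1h2ae lay just below it without overlap, and the next genes, Hist1h4i (37.5 CPM), Hist1h4d (35.7), Hist1h1c (31.2), Hist2h2ac (21.1) and Hist1h4h (17.2), were well below them. The remaining H1 genes were at 13.7 to 21.2 CPM for Hist1h1d and at 11.9 to 14.3 for Hist1h1a, and the testis variant Hist1h1t had 4 UMIs in all.

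In the lineage-traced libraries the members held 83009 UMIs and 63 had at least 1. Over the 4 libraries Hist1h2bc again led with 174 ± 44.6 CPM (SD, n = 4 libraries), and Hist1h1b followed with 171 ± 66.1, Hist1h2ap with 142 ± 111, Hist1h2ae with 119 ± 70.2 and Hist1h1e with 97.3 ± 41.4. The order differed between the genotypes. The mean in WT was 142 CPM for Hist1h2bc, 115 for Hist1h1b, 64.7 for Hist1h2ae and 63.5 for Hist1h2ap, whereas in Setdb1-KO it was 227 for Hist1h1b, 220.4 for Hist1h2ap, 207 for Hist1h2bc and 174 for Hist1h2ae. Hist1h3e (92.4 CPM) and Hist1h2bj (69.7) ranked sixth and seventh here and were outside the first 10 in the Lgr5+ libraries. Hist1h2an, an H2A gene without a match to the stem-loop, was at 0.435 to 0.779 CPM in the 4 Lgr5+ libraries and at 16.8 to 46.8 in the 4 lineage-traced libraries. The experiments differ in reporter, depth and cell make-up, which cannot be told apart for this gene.

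To ask how the members followed DNA replication, each cell was placed by 43 replication markers and 50 G2/M markers, none of which is a clustered histone gene. Replicating cells had at least 20 replication-marker UMIs per 10000, at least 3 such UMIs, and no lower rate than for G2/M. G2/M cells met the same limits on their list with the higher rate there, and non-dividing cells had under 5 per 10000 of each list. In a cell of 2000 UMIs or fewer the last limit means that no marker UMI was caught. Median depth of lineage-traced non-dividing cells was 1283 and 907.5 UMIs in WT and 808.5 and 2018.5 in Setdb1-KO. Dividing cells of low depth may therefore be among them. Replicating cells made up 21.8% to 25.3% of each Lgr5+ library and 6.75% to 18.1% of each lineage-traced library, and non-dividing cells 22.3% to 35.0% and 15.0% to 37.0%. The remaining cells fell between the limits and were left out of the phase comparisons. The phases are classes by markers, and the G2/M list holds genes such as Mki67, Top2a, Cdk1 and Ccna2. DNA content was not measured, so cells still in S phase may be classed as G2/M.

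The summed members were lowest in non-dividing cells, higher in replicating cells and highest in G2/M cells in each of the 8 libraries. In Lgr5+ non-dividing cells they were at 512 and 499 CPM for WT, and at 580 and 531 for Setdb1-KO. In replicating cells they were at 1069, 1017, 1141 and 966 CPM in the same order, and in G2/M cells at 1802, 1600, 2060 and 1479, and the ranges of the 3 phases did not overlap. The lineage-traced libraries had 310 and 562 CPM in WT and 975 and 1066 in Setdb1-KO non-dividing cells, 1331, 1315, 2042 and 1765 in replicating cells, and 1907, 1648, 3240 and 2364 in G2/M cells. There the phases were ordered within every library, but across genotypes the ranges of replicating and G2/M cells overlapped.

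**Figure D1:**
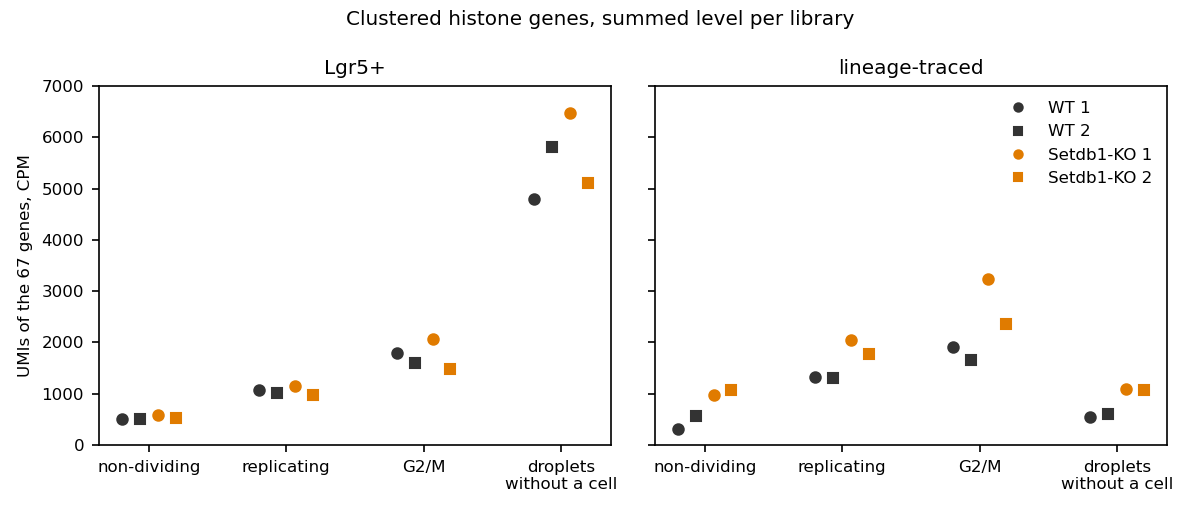
Summed level of the 67 clustered histone genes (y axis, CPM) in non-dividing, replicating and G2/M cells and in droplets without a cell, with 1 point per library (circles replicate 1, squares replicate 2; dark WT, orange Setdb1-KO). Within each library the level rises from non-dividing to G2/M cells, and Lgr5+ droplets, at 4791 to 6476 CPM, lie above every class of cells, while lineage-traced droplets are at 554 to 1094.

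In Lgr5+ replicating cells most members were higher than in non-dividing cells of the same libraries. Hist1h1b rose from 20.0, 34.9, 13.7 and 33.9 CPM in the non-dividing cells (WT 1, WT 2, Setdb1-KO 1 and Setdb1-KO 2, an order kept below) to 188, 192, 191 and 175, with no overlap (log2 fold change 2.87 ± 0.20 SE, edgeR adjusted p = 1.8e-07). Hist1h2ap rose from 17.5, 25.7, 18.6 and 23.7 CPM to 186, 158, 247 and 113 (2.95 ± 0.21, edgeR adjusted p = 2.1e-07). Hist1h2ae rose from 23.5, 40.2, 23.4 and 38.5 CPM to 113, 128, 123 and 102 (1.88). Every replicating library lay above every non-dividing library for these 3 genes. Hist1h2af had 0, 4, 0 and 3 UMIs in the non-dividing cells and 27, 25, 16 and 36 in replicating cells. It passed the filter on low counts through the dividing cells, so its fitted fold (3.69 ± 0.49) is a description on a base of few UMIs.

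Of the 67 members, 45 passed the filter on low counts and 42 of these passed the test, 39 higher and 3 lower, where 70.8% of all 12111 genes tested passed (36.0% higher and 34.8% lower). The median log2 fold change was 1.79 over the 45 and 0.01 over all genes tested. A member with counts in replicating cells alone passes the filter through those cells, and the 22 members not tested are without a value, so the count is a description of the genes tested. By family the medians were 2.05 for H1, 1.88 for H2A, 2.15 for H2B, 1.68 for H3 and 1.13 for H4. Beside Hist1h2af, the largest fitted folds were those of Hist1h2ap, Hist1h2ak (2.95), Hist1h1b and the H4 gene Hist1h4a (2.82). That of Hist1h2ak also rests on few UMIs in the non-dividing cells. Hist1h4a did not pass the filter on low counts in the genotype fit of non-dividing cells, so its fold has a low base as well. Hist1h4j (0.59), Hist2h2be (0.44) and Hist3h2ba (−0.18) did not pass.

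The non-dividing cells held differentiated classes beside stem-like cells, so the phases differed in cell make-up. With both phases limited to stem-like cells, an alternative chosen after seeing the data, 20 of 31 Lgr5+ members tested passed, 18 higher and 2 lower, where 31.5% of all genes did (16.9% higher). Hist1h2ap (2.07) and Hist1h1b (1.86) were still higher and Hist1h2bc (−1.21) lower, whereas Hist1h2ak (edgeR adjusted p = 0.062) and Hist1h1c (0.91) did not pass. The non-dividing stem-like cells numbered 99 to 320 per library.

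The 3 members that fell were Hist1h2bc, Hist3h2a and Hist1h1c. Hist1h2bc was at 85.4, 76.2, 130 and 142 CPM in replicating cells and at 251, 211, 350 and 258 in non-dividing cells, so that the highest replicating library was below the lowest non-dividing one (−1.32 ± 0.08, edgeR adjusted p = 8.9e-08). Hist3h2a was at 4.87, 4.55, 6.06 and 5.61 CPM against 9.10, 7.04, 8.22 and 6.46 (−0.53, edgeR adjusted p = 0.0059). Hist1h1c was at 22.9, 18.5, 20.6 and 20.1 CPM against 31.8, 15.1, 43.2 and 23.7, with overlapping groups (−0.40, edgeR adjusted p = 0.030), and its call was lost without WT replicate 1 (adjusted p = 0.096) or Setdb1-KO replicate 1 (0.16). All 3 genes have an annotated transcript over 100 bases past the stem-loop. Over the 22 tested members with such a transcript the median was 1.13, with 17 higher and 3 lower. Over the other 23 tested it was 2.15, with 22 higher and 0 lower. These others include Hist2h2be, which did not pass. It had no match to the stem-loop, so no such distance was measured for it.

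**Figure D2:**
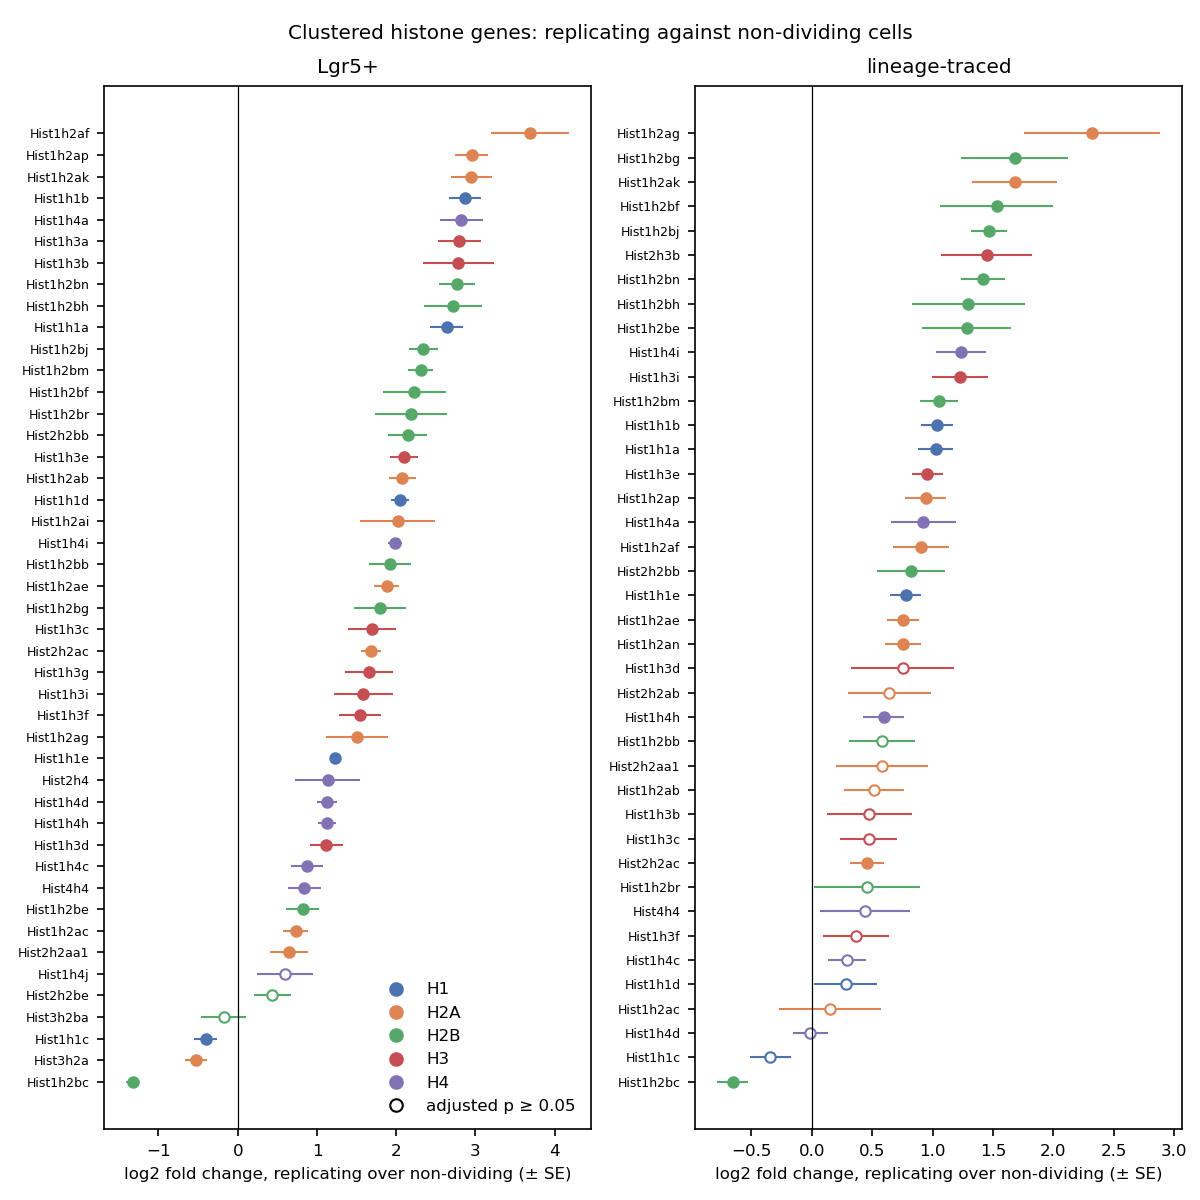
Log2 fold change of replicating over non-dividing cells (x axis, points ± SE) for each clustered histone gene tested, colored by histone family, with open circles for an adjusted p of 0.05 or more. Hist1h2bc sits apart at the bottom of both panels, at −1.32 in the Lgr5+ and −0.65 in the lineage-traced libraries.

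In G2/M cells of the Lgr5+ libraries, 50 of 52 members tested passed against non-dividing cells, 49 of them higher, where 71.1% of all genes tested passed (35.6% higher and 35.6% lower). The median was 2.49 against −0.00 over all genes tested. The largest fitted folds were those of Hist1h2af (4.59), Hist1h2bh (3.96), Hist1h2ap (3.71), Hist1h2ak (3.59) and Hist1h3b (3.55), of which all but Hist1h2ap had at most 10 UMIs in any non-dividing library. Hist3h2a and Hist1h1c, lower in replicating cells, were higher in G2/M cells, by 1.06 and 0.53 on the log2 scale. Hist1h2bc was at 138, 125, 269 and 203 CPM and was the only member that fell (−0.59 ± 0.08, edgeR adjusted p = 3.3e-05). Hist2h3c2 and Hist2h3c1 did not pass. A member with counts in G2/M cells alone passes the filter on low counts through those cells, so this count is also a description of the genes tested.

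Set directly against replicating cells, G2/M cells were higher in all 4 Lgr5+ libraries for 39 of the 47 members with at least 100 UMIs over both phases (83.0%), compared with 28.8% of all 11152 such genes, of which 23.8% were lower in all 4. Hist1h1b was at 304, 301, 287 and 257 CPM in G2/M cells, above all 4 replicating values, and Hist1h2ap was at 322, 264, 457 and 180, which overlapped them. Hist1h4a was the only member lower in G2/M cells in all 4, at 4.36, 3.59, 4.08 and 5.41 CPM against 6.07, 5.82, 4.18 and 6.29. In the lineage-traced libraries 29 of 39 members were higher in all 4 (74.4%, against 15.5% of all genes) and 0 were lower in all 4 (against 11.1% of all genes).

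The lineage-traced cells gave the same order of phases with smaller fitted folds. These fits scale the totals by TMM, and for Hist1h1b below the CPM values differ by more than the fit in each library. Against non-dividing cells, 25 of 40 members tested passed in replicating cells, 24 higher and Hist1h2bc lower, where 45.4% of all genes tested passed (21.3% higher and 24.1% lower), and the median was 0.77 against −0.02 over all genes. Hist1h1b was at 38.9, 52.6, 105 and 118 CPM in non-dividing and at 231, 171, 282 and 260 in replicating cells (1.04 ± 0.13, edgeR adjusted p = 4.8e-09). Hist1h2bj, an H2B gene, rose from 8.10, 22.9, 33.4 and 40.1 CPM to 92.3, 87.0, 107 and 111 (1.47 ± 0.15, edgeR adjusted p = 1.6e-11). For both genes the non-dividing CPM was lower in the WT libraries, where Paneth markers took 54.0% and 44.6% of the UMIs of these cells against 17.1% and 11.1% in Setdb1-KO, and neither gene passed the test of genotype in them (edgeR adjusted p = 0.55 and 0.53). The largest fitted folds were those of Hist1h2ag (2.32, on 0 to 4 UMIs in the non-dividing libraries), Hist1h2bg and Hist1h2ak (both 1.68), Hist1h2bf (1.53) and Hist1h2bj. Hist1h1d (0.28) and Hist1h1c (−0.34) did not pass. Hist1h2ag, Hist1h2bg, Hist1h2ak and Hist1h2bf did not pass the filter on low counts in the genotype fit of non-dividing cells. They entered through the replicating cells, so the count of members is a description of the genes tested. In stem-like cells alone 3 of 14 members tested passed, 2 higher and 1 lower, where 6.65% of all genes did (4.16% higher), with Hist1h2bj at 0.80 and Hist1h2bc at −1.35. There the non-dividing cells numbered 64 to 264 per library.

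Hist1h2bc was again lower in lineage-traced replicating cells by the test, at 139, 163, 148 and 141 CPM against 82.4, 110, 180 and 250 (−0.65 ± 0.13, edgeR adjusted p = 3.5e-05). Its CPM values were lower only in the Setdb1-KO libraries and higher in the WT libraries, whose non-dividing cells gave the larger share of UMIs to Paneth markers. In G2/M cells 40 of 44 members passed, all higher, where 45.6% of all genes passed (21.3% higher and 24.3% lower), with the largest folds for Hist1h2ag (2.38), Hist1h2bh (2.33), Hist1h2bf and Hist1h2bg (both 2.17) and Hist2h2ab (2.13). Hist1h2bc (−0.16), Hist1h1c (0.15), Hist1h2ac (0.30) and Hist1h2br (0.84) did not pass there. Hist1h2ag, Hist1h2bh, Hist1h2bf and Hist1h2bg did not pass the filter on low counts in the genotype fit of non-dividing cells. They entered through the G2/M cells, so this count too is a description of the genes tested.

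The share of cells with at least 1 member UMI followed the same order but depended on depth. With every Lgr5+ cell thinned to 1000 UMIs, 69.3% to 76.9% of G2/M cells held a member UMI, compared with 47.6% to 51.8% of replicating and 37.2% to 42.7% of non-dividing cells. Without thinning the shares were all between 84.3% and 99.8%. In the lineage-traced cells thinned to 500 UMIs the shares were 49.5% to 71.1%, 36.6% to 59.7% and 26.8% to 49.2%. Intervals on such shares would cover counting error only.

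The genes that make, process and deposit histones were described from lists of 15 replication-independent histones, 22 genes of histone gene transcription and message processing, and 19 chaperones and deposition factors. Ccne1, Ccne2, E2f1, Chaf1a and Chaf1b also served to set the phases and were left out of the counts. In Lgr5+ replicating cells 8 of 11, 15 of 18 and 15 of 17 tested were higher than in non-dividing cells and 0 lower, where 36.0% of all genes tested were higher. In the lineage-traced cells 7 of 10, 10 of 18 and 14 of 17 were higher and 0 lower, where 21.3% of all genes were higher. Slbp, the stem-loop binding protein, was at 233, 218, 228 and 204 CPM in Lgr5+ replicating cells, 100.4, 86.2, 90.7 and 85.5 in G2/M cells and 42.2, 52.5, 49.0 and 36.2 in non-dividing cells, with no overlap between phases. Its log2 fold change over non-dividing cells was 2.30 in replicating and 1.01 in G2/M cells, so that Slbp was higher in replicating than in G2/M cells in all 4 libraries, unlike most members. In the lineage-traced libraries Slbp was at 66.6, 63.5, 73.8 and 53.0 CPM in replicating and 36.9, 36.0, 42.8 and 25.5 in G2/M cells.

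Other genes of the lists were described by their log2 fold changes in Lgr5+ replicating cells. Casp8ap2 (2.02), Lsm11 (1.31) and Npat (0.97), which act in histone gene transcription or 3′ end processing, were higher. The histone acetyltransferase Hat1 (3.46) and the chaperone Nasp (3.1) rose more. The variants H2afz (1.82) and H2afx (1.91) also rose, and H2afx (3.55) and the centromeric variant Cenpa (5.31) were higher still in G2/M cells. Hinfp, a transcription factor of H4 genes, did not pass (−0.37, edgeR adjusted p = 0.072).

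Free RNA in the droplets bears on the low values. Lgr5+ droplets without a cell held 4791, 5805, 6476 and 5110 CPM of the members, more than any class of cells, while lineage-traced droplets held 554, 606, 1094 and 1069. Hist1h1b alone was at 860 to 1105 CPM in the Lgr5+ droplets and Hist1h2ap at 589 to 1143. Markers of Paneth cells, taken as absent from enterocytes, were used as a measure of this background. In non-dividing enterocyte-like Lgr5+ cells they were at 1.69% to 4.02% of their droplet level. The study reports aberrant activation of Lyz1 and Itln1, both in this list, in Setdb1-KO Stem-I cells. In Setdb1-KO libraries the markers may therefore not measure free RNA alone. Hist1h1b (1.12% to 2.90%), Hist1h2ap (1.13% to 3.44%) and Hist1h2ae (1.17% to 3.29%) lay within or below the range of the Paneth markers. By this measure their UMIs in these cells cannot be told from free RNA. Of the 35 members with at least 100 droplet UMIs, 18 had a median share within that range, 4 below and 13 above it. Against the same range, all non-dividing Lgr5+ cells, the base of the phase tests, had 17 within, 1 below and 17 above. Goblet-like cells had 14, 3 and 18.

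In the enterocyte-like Lgr5+ cells Hist1h2bc was the clearest exception, at 198% to 269% of its droplet level. It was followed by Hist1h4i at 47.8% to 72.1% and Hist1h1c at 10.7% to 76.2%. Hist1h1e was at 6.37% to 8.11%. In the lineage-traced libraries the Paneth markers in enterocyte-like cells were at 3.67% to 50.1% of their droplet level and the summed members at 79.0% to 146%. The part of free RNA in the phase differences was not tested beyond these values.

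**Figure D3:**
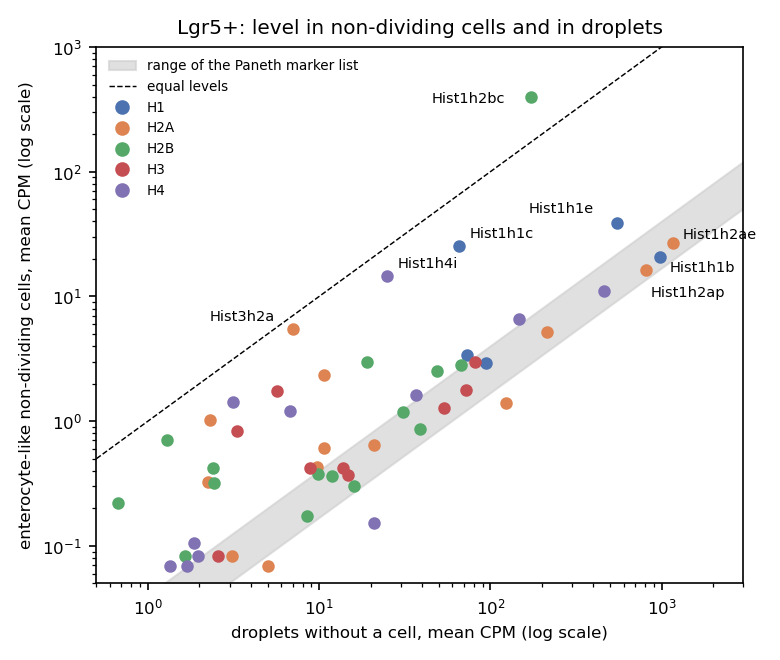
Mean CPM over the 4 Lgr5+ libraries in droplets without a cell (x axis, log scale) and in non-dividing enterocyte-like cells (y axis, log scale), 1 point per clustered histone gene colored by family, genes at 0 not drawn. The gray band marks 1.69% to 4.02% of the droplet level, the range of the Paneth markers, and Hist1h2bc is the labeled gene above the line of equal levels.

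Among non-dividing cells, classes were set by marker UMIs and differentiated cells were compared with stem-like cells of the same libraries. In Lgr5+ enterocyte-like cells 8 of 12 members tested passed, 1 higher and 7 lower, where 62.8% of all genes tested passed (31.4% higher and 31.5% lower). Hist1h2bc rose from 209, 122, 191 and 200 CPM in stem-like cells to 363, 310, 537 and 382 in enterocyte-like cells, without overlap (1.28 ± 0.11, edgeR adjusted p = 3.0e-16). The 7 lower members were Hist1h2ac (−1.35), Hist3h2a (−0.97), Hist1h4h (−0.83), Hist1h2ap (−0.81), Hist1h1b (−0.78), Hist1h2ae (−0.78) and Hist1h1e (−0.59). Without 1 library the calls of Hist1h2ac, Hist3h2a and Hist1h4h were lost (adjusted p of 0.064 for Hist1h2ac without Setdb1-KO replicate 1, 0.057 and 0.27 for Hist3h2a without WT replicate 1 or Setdb1-KO replicate 2, and 0.050 and 0.062 for Hist1h4h without WT replicate 2 or Setdb1-KO replicate 2). The stem-like cells held 1.72% to 6.1% of the droplet level of Hist1h1b and 4.11% to 7.98% of that of the Paneth markers, so for Hist1h1b, Hist1h2ap and Hist1h2ae both sides of the comparison lay within or below the range of the Paneth markers. Of the chaperones and deposition factors 0 were higher and 13 of 15 tested lower in these cells, of the transcription and processing genes 0 and 6 of 15, and of the replication-independent histones 4 and 4 of 10.

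In the Lgr5+ libraries Hist1h1c was the member that rose in goblet-like and enteroendocrine-like cells. In enteroendocrine-like cells it was at 88.3, 74.4, 56.6 and 66.96 CPM against 15.4, 15.0, 30.8 and 13.2 in stem-like cells, without overlap (1.3, edgeR adjusted p = 0.00013), and it was the only one of 10 members to pass, where 60.9% of all genes tested did. In goblet-like cells 5 of 16 members passed, where 58.0% of all genes did (29.1% higher and 28.9% lower), with Hist1h1c higher (0.96, edgeR adjusted p = 0.00057) and Hist3h2a (−0.85), Hist1h4h (−0.84), Hist1h2ae (−0.51) and Hist1h1b (−0.39) lower. The calls of Hist3h2a and Hist1h1b were each lost without any of 3 libraries, WT replicate 2 and Setdb1-KO replicate 2 among them, and that of Hist1h4h without WT replicate 2 (edgeR adjusted p = 0.18). In tuft-like cells 0 of 8 passed by edgeR, with 2 at an unadjusted p under 0.05, where 48.8% of all genes passed.

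In lineage-traced enterocyte-like cells 1 of 11 passed (Hist1h2ap, −0.93, edgeR adjusted p = 0.040), where 35.9% of all genes did. In goblet-like cells 4 of 14 passed, all lower, where 44.3% of all genes did (20.6% lower), namely Hist1h3e (−0.86), Hist1h2ap (−0.83), Hist1h1e (−0.67) and Hist1h2bc (−0.38). In Paneth-like cells 1 of 14 passed, where 16.9% of all genes did. That member was Hist1h2bc (−0.75, edgeR adjusted p = 0.0053), at 15.4, 12.2, 39.4 and 49.1 CPM against 182, 199, 349 and 246 in stem-like cells. The log2 ratio of these mean CPM values was −3.07, far from the fitted value, which scales the totals by TMM. Paneth markers took 76.4%, 75.2%, 59.2% and 62.5% of the UMIs of Paneth-like cells and 13.2%, 17.9%, 2.15% and 3.29% of those of stem-like cells. Each of these 6 calls was lost when 1 library was left out, Hist1h2bc in Paneth-like cells without Setdb1-KO replicate 1 (edgeR adjusted p = 0.080). The stem-like WT groups were small, with 125 and 64 cells.

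**Figure D4:**
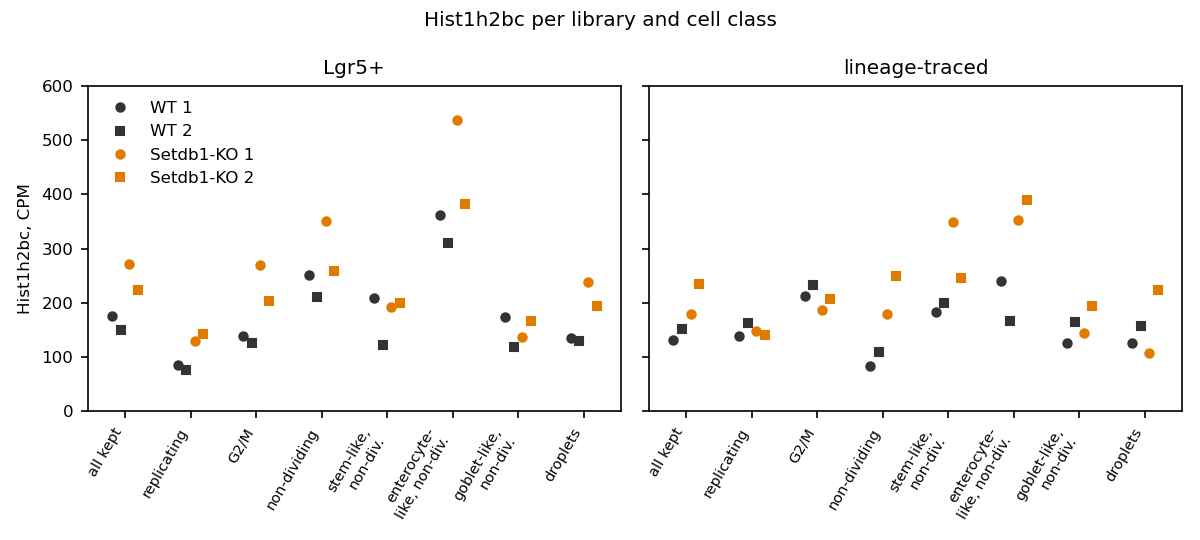
CPM of Hist1h2bc (y axis, from 0) in classes of cells and in droplets, 1 point per library (circles replicate 1, squares replicate 2; dark WT, orange Setdb1-KO). In the Lgr5+ panel replicating cells are at 76.2 to 142 CPM and non-dividing enterocyte-like cells at 310 to 537, without overlap, and Paneth-like, tuft-like and enteroendocrine-like cells are not drawn.

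The genotype comparison asked whether loss of Setdb1 in Lgr5+ cells was accompanied by a change in these genes. In all kept Lgr5+ cells 1 of 58 members tested passed, where 1.34% of all genes tested did, and the median log2 fold change of Setdb1-KO over WT was −0.17 against −0.01 over all genes. The summed members were at 1149 and 1005 CPM in WT and at 1138 and 987 in Setdb1-KO, which overlap. Hist1h2bc was the member that passed, at 176 and 149 CPM in WT and 272 and 223 in Setdb1-KO (0.61 ± 0.09 SE, edgeR adjusted p = 0.034). The call was lost without the low-count filter (adjusted p = 0.10) and without WT replicate 1, WT replicate 2 or Setdb1-KO replicate 1 (edgeR adjusted p = 0.086, 0.13 and 0.084). Over the alternatives its adjusted p ranged from 6.4e-07 to 0.13. Droplets without a cell moved the same way for this gene, at 135 and 129 CPM in WT and 239 and 193 in Setdb1-KO, and their part in the result was not tested. Hist3h2ba had the next case of separated groups at low counts, 0.909 and 1.40 CPM against 2.54 and 3.54 (1.43, edgeR adjusted p = 0.089).

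Within Lgr5+ replicating cells Hist1h2bc was again the only member called, 1 of 45, where 0.926% of all genes passed. It was at 85.4 and 76.2 CPM in WT and 130 and 142 in Setdb1-KO (0.78 ± 0.10, edgeR adjusted p = 0.0067), and this call held under all 11 alternatives run for it. In non-dividing cells 0 of 28 members passed by edgeR and 0 by DESeq2, with 3 at an unadjusted p under 0.05, where 1.28% of all genes passed, and Hist1h2bc was at 0.41 (edgeR adjusted p = 0.23). Within the stem-like, enterocyte-like, goblet-like, tuft-like and enteroendocrine-like cells 0 of 10, 13, 15, 5 and 6 members passed by edgeR, with 0, 1, 1, 0 and 0 at an unadjusted p under 0.05, where 0.454%, 0.788%, 0.495%, 0.131% and 0.0912% of all genes did. The non-dividing cells and differentiated classes of this sort may hold the co-purifying cells without GFP. Those need not descend from cells in which Cre acted, and whether they had lost Setdb1 was not tested. The counts in non-dividing cells and within classes rose without the low-count filter and with the replicate block, as given below. The interaction of genotype and phase passed for 0 of 45 members by edgeR and by DESeq2, with 2 at an unadjusted p under 0.05, where 0.00826% of all genes passed. Of 310 tests of genes of the histone variant, processing and chaperone lists in the 8 Lgr5+ genotype fits, 0 passed by edgeR and 17 had an unadjusted p under 0.05.

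In the lineage-traced libraries the members stood higher in Setdb1-KO. Over all kept cells they summed to 773 and 947 CPM in WT and 1920 and 1620 in Setdb1-KO. Leaving the Paneth markers out of the total brought these to 1178 and 1388 against 2074 and 1706, still without overlap, and the share of replicating cells was 12.3% and 6.75% in WT and 18.1% and 17.5% in Setdb1-KO. Droplets without a cell moved the same way, at 554 and 606 CPM in WT and 1094 and 1069 in Setdb1-KO, and their part in the result was not tested. The sums of each phase, given above, were also higher in both Setdb1-KO than in both WT libraries. Outside the Paneth markers the groups stood closer, at 673 and 1014 against 1176 and 1199 CPM in non-dividing cells, 1430 and 1470 against 2097 and 1804 in replicating cells, and 2064 and 1815 against 3326 and 2408 in G2/M cells. By gene, 47 of 53 members tested had a positive log2 fold change and the median was 0.49 against 0.01 over all genes, and 2 passed the test, where 8.73% of all genes did (1.54% higher). That count rested on the settings, with 18 under the replicate block, 8 without the low-count filter, 0 above 2000 UMIs per barcode, 0 without WT replicate 1, and 8, 8 and 9 without WT replicate 2, Setdb1-KO replicate 1 or Setdb1-KO replicate 2. Hist1h4h was at 14.2 and 20.7 CPM in WT and 51.9 and 48.8 in Setdb1-KO (1.01 ± 0.26, edgeR adjusted p = 0.031). Hist1h4m, whose transcript cannot be told from that of Hist1h4n, had 0 UMIs in both WT libraries and 16 and 26 in Setdb1-KO, at least 10.7-fold higher when WT is set at 3 counts over the group. It passed the filter on low counts through the Setdb1-KO libraries alone, so its call is a description. The call of Hist1h4h was lost without WT replicate 1 (edgeR adjusted p = 0.68). In the Lgr5+ libraries Hist1h4m had 22 and 12 UMIs in WT and 0 and 10 in Setdb1-KO.

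Within lineage-traced replicating cells 4 of 33 members passed, all higher in Setdb1-KO, where 2.49% of all genes tested did (0.514% higher). Hist1h2ap was at 56.9 and 108 CPM in WT and 328 and 198 in Setdb1-KO (1.73 ± 0.34, edgeR adjusted p = 3.5e-05). Hist1h4h was at 25.6 and 12.4 CPM against 58.6 and 49.9 (1.42, edgeR adjusted p = 0.0017), and Hist1h2ab at 4.61 and 9.67 against 18.3 and 14.9 (1.44, edgeR adjusted p = 0.043). Hist1h2ae was at 56.9 and 144 CPM against 213 and 183 (1.07, edgeR adjusted p = 0.048). The groups did not overlap for these 4 genes, but the DESeq2 Wald test called Hist1h2ap alone, stricter cycle limits called Hist1h2ap and Hist1h2ae, 0 passed without WT replicate 1 (edgeR adjusted p = 0.77 for Hist1h2ap) and only Hist1h2ap passed without WT replicate 2, the library that stood apart by its markers and held 262 replicating cells. Droplets gave 37.1 and 174 CPM of Hist1h2ap in WT and 301 and 187 in Setdb1-KO, and 20.8 and 41.8 against 86.7 and 44.5 of Hist1h2ae. Both genes were thus higher in Setdb1-KO droplets, but by little between WT replicate 2 and Setdb1-KO replicate 2. These droplets held a median of 11 and 24 UMIs in WT and 5 and 7 in Setdb1-KO. Their part in the result was not tested.

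**Figure D5:**
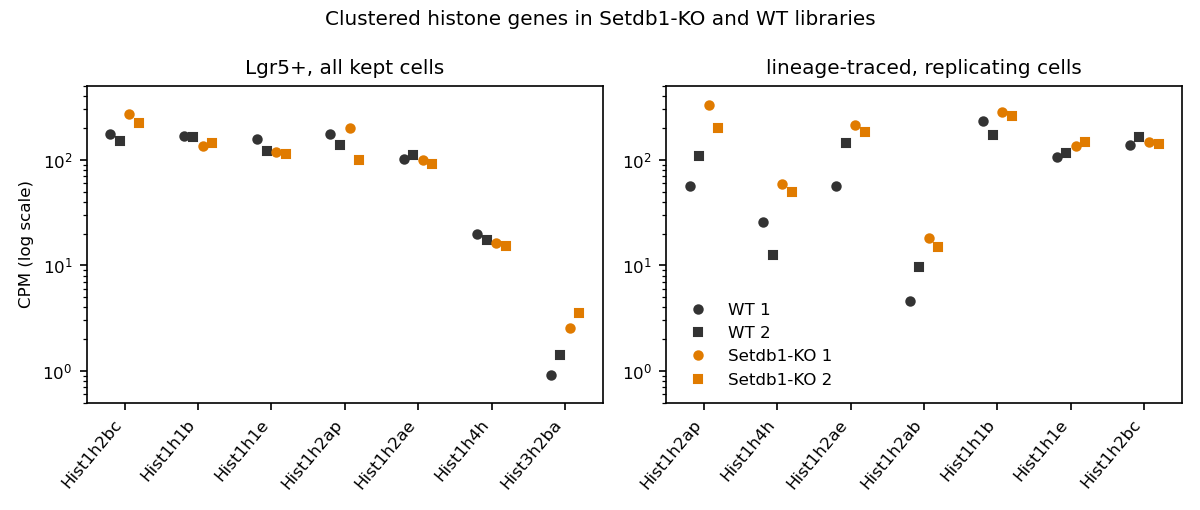
CPM (y axis, log scale) of named clustered histone genes in the Lgr5+ libraries over all kept cells and in replicating cells of the lineage-traced libraries, 1 point per library (circles replicate 1, squares replicate 2; dark WT, orange Setdb1-KO). Hist1h2bc separates the genotypes in the Lgr5+ panel (149 and 176 against 223 and 272 CPM), whereas Hist1h2ap, Hist1h4h, Hist1h2ae and Hist1h2ab do so in the lineage-traced panel, where Hist1h2bc overlaps.

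In the non-dividing lineage-traced cells 0 of 29 members passed by edgeR and 0 by DESeq2, with 4 at an unadjusted p under 0.05, where 7.70% of all genes passed. That count was 5 with the replicate block, 2 without the low-count filter, 2 with stricter cycle limits and 1 above 2000 UMIs per barcode. Within goblet-like cells 2 of 14 passed, where 1.60% of all genes did (0.207% higher). They were Hist1h2ae, at 15.1 and 26.6 CPM in WT and 96.7 and 75.4 in Setdb1-KO (2.06, edgeR adjusted p = 9.8e-05), and Hist1h2ap, at 10.8 and 30.4 against 87.4 and 49.2 (1.84, edgeR adjusted p = 0.0016). Both were lost without WT replicate 1 (edgeR adjusted p = 0.91 for Hist1h2ae and 1.00 for Hist1h2ap). In the droplets given above, Hist1h2ap was higher than in the goblet-like cells in each library, and Hist1h2ae was higher in WT and lower in Setdb1-KO. Within Paneth-like cells 4 of 8 passed, where 6.55% of all genes did (2.69% higher). Hist1h2ap led with 3.71 and 5.62 CPM in WT and 78.7 and 38.9 in Setdb1-KO (2.69, edgeR adjusted p = 7.0e-06), a call that held under all 9 alternatives (edgeR adjusted p from 6.9e-10 to 0.036). These values lay below the droplet level of each library, 37.1, 174, 301 and 187 CPM. That level was also higher in Setdb1-KO, by little between WT replicate 2 and Setdb1-KO replicate 2. Its part in the result was not tested. The log2 ratio of its mean CPM was 3.66, and the Paneth markers took a larger share of UMIs in the WT than in the Setdb1-KO Paneth-like cells, as given above. The limit for the class followed the droplets of each library, at 5304 and 5727 Paneth marker UMIs per 10000 in WT and 2492 and 2210 in Setdb1-KO. With the highest of these used for all 4, an alternative chosen after seeing the data, the class held 581 and 134 cells in WT and 47 and 54 in Setdb1-KO in place of 594, 134, 115 and 134, and Hist1h2ap was the only member called (2.14, edgeR adjusted p = 0.0037). Hist1h2ae (1.78), Hist1h1a (1.64) and Hist1h1b (1.35) were the other three with the separate limits. Under the shared limit Hist1h1b did not pass (1.07, edgeR adjusted p = 0.31) and the other two did not pass the filter on low counts. These calls were also lost without WT replicate 1 (edgeR adjusted p = 0.85, 0.91 and 0.11), without WT replicate 2 (0.091, 1.00 and 0.15) or without Setdb1-KO replicate 1 (0.30, 0.36 and 0.34).

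Stem-like cells gave 0 of 6 and enterocyte-like cells 0 of 9 by edgeR, with 2 and 1 at an unadjusted p under 0.05, where 2.70% and 25.9% of all genes passed. The interaction of genotype and phase passed for 0 of 40 members by edgeR and by DESeq2, with 2 at an unadjusted p under 0.05, where 0.493% of all genes passed. Of 216 tests of genes of the 3 lists in the 7 lineage-traced genotype fits, 1 passed, that of the variant H2afv in enterocyte-like cells, at 712 and 630 CPM in WT and 1728 and 2064 in Setdb1-KO (1.34, edgeR adjusted p = 0.0021).

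A direct test of whether the effect of Setdb1-KO differed between the experiments passed for 5 of 58 members, all with a higher value in the lineage-traced libraries, where 7.58% of all genes tested passed (1.51% higher). Hist1h2ak was at 6.0 and 5.43 CPM in Lgr5+WT and 2.83 and 3.91 in Lgr5+Setdb1KO, and at 3.14 and 3.46 against 7.67 and 5.72 in the lineage-traced libraries. The genotypes were thus ordered in opposite ways. Hist1h2bb was at 5.06 and 4.68 against 3.26 and 4.17 CPM, and then at 4.34 and 5.32 against 13.2 and 9.65. Hist1h2bm was at 9.32 and 8.78 against 6.16 and 7.27 CPM, and then at 22.2 and 23.1 against 44.7 and 42.9. Hist1h4h and Hist1h4m were the other members called, and the fit of Hist1h4m rests on 0 UMIs in both lineage-traced WT libraries. Without lineage-traced WT replicate 1 none of the 5 calls held (edgeR adjusted p from 0.055 to 0.25), and for Hist1h2ak, Hist1h2bb and Hist1h2bm the call was lost in 6 of the 8 omissions of 1 library. Setdb1 itself differed between the experiments in the same direction (1.09, edgeR adjusted p = 0.033), and the experiments differ in reporter and cell make-up, which cannot be told apart from the tracing.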

How the data were processed

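The authors deposited unfiltered counts of UMIs per gene and barcode for 8 single-cell RNA-seq libraries, made with Cell Ranger 6.1.1 according to the study's methods, which leaves multi-mapped reads out. The genome build and annotation of these counts are not given in the sources used here. Gene positions are from GENCODE M21 on GRCm38. Total counts per library ran from 16881518 to 81876035 UMIs. The total RNA-seq, H3K9me3 and scATAC-seq samples were not used here.

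From the counts, kept barcodes were summed per library and class of cells, and the sums were tested with edgeR 4.0.16 (quasi-likelihood F test, filterByExpr, TMM, Benjamini-Hochberg over all genes tested, threshold 0.05) in R 4.3.3. Comparisons of phases and classes kept the library as a block. DESeq2 1.42.0 served as an alternative. Scripts were tested on simulated data. There a log2 change of 1 was recovered for 90% of changed genes in the Lgr5+ genotype comparison over all kept cells. In the lineage-traced comparison 46% were recovered, so its counts of members called can miss changes of that size. A log2 change of 2 was recovered for 100% in both. CPM is UMIs per 1000000 UMIs of that library and class. Each library is 1 replicate, and 2 against 2 libraries limit the precision of every genotype comparison.

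Non-dividing cells were classed by marker UMIs per 10000 (enterocyte 100, goblet 500, Paneth 1000, tuft 30, enteroendocrine 100, T cell 20, stem 20, and at least 1.5 times the droplet level), and T-cell-like cells numbered 0 to 4 per library. Barcodes with markers of more than 1 differentiated type were set aside, between 15 and 143 per library, and no doublet caller was run. Droplets without a cell were barcodes of rank 45000 to 90000. Libraries of the same replicate number were not taken as pairs, since 2 pairs per experiment cannot show whether they were paired. The members and the lists were chosen with earlier results of these data known. Named genes were Setdb1, the 10 highest members per experiment, members called in a genotype comparison or interaction, the 5 largest changes in each direction among phases and classes, the H1 genes and genes of the 3 lists. Hist1h4a in the comparison of G2/M with replicating cells, Hist3h2ba, and the other members given as not passing or by droplet share, were named after their values were seen. Alternatives varied normalization, filters, depth, cycle limits, the replicate block and the libraries included.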

Additional observations from a re-analysis of the deposited data

Results flagged for a closer look

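The effect of Setdb1-KO differed between the lineage-traced and Lgr5+ experiments for 5 members by an interaction test (edgeR quasi-likelihood, adjusted over all genes tested), 5 of 58 tested, where 7.58% of all genes passed. None of the 5 calls held without lineage-traced WT replicate 1. The difference, lineage-traced minus Lgr5+ on the log2 scale, was 1.25 for Hist1h4h (adjusted p = 0.011, with Setdb1-KO over WT at −0.21 in Lgr5+ and 1.01 in lineage-traced cells), 1.21 for Hist1h2ak (adjusted p = 0.043, −0.71 and 0.49), 1.08 for Hist1h2bb (adjusted p = 0.047, −0.35 and 0.72) and 0.84 for Hist1h2bm (adjusted p = 0.047, −0.40 and 0.42). For Hist1h4m the fitted difference was 10.19, a value that depends on the prior count because both lineage-traced WT libraries had 0 UMIs, and that is no bound. Beside these values, Setdb1 was at −0.85 in Lgr5+ and 0.24 in lineage-traced cells, and Paneth markers took 0.958% and 1.12% of UMIs in Lgr5+WT, 0.901% and 3.42% in Lgr5+Setdb1KO, 34.4% and 31.8% in lineage-traced WT and 7.44% and 5.06% in lineage-traced Setdb1-KO. Their part in the differences was not tested.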

How the results depend on the processing

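Of 589 values of named genes recomputed under an alternative, 477 stayed on their side of the threshold, 112 lost their call and 0 changed direction. Leaving out 1 library took 73 of the 112, and at least 2000 UMIs per barcode 16. DESeq2 size factors and a limit of 200 to 4000 genes per barcode changed no call of a named gene. The cause of the changes was not tested.

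Counts of members called moved by over 1.5 times in these cases. Without a filter on low counts they were 0 in all Lgr5+ cells (1 as reported), 2 in Lgr5+ non-dividing cells (0), 2 in the Lgr5+ classes (0), 8 in all lineage-traced cells (2), 2 in lineage-traced non-dividing cells (0) and 16 for genotype by experiment (5). At no less than 2000 UMIs per barcode they were 0 in all lineage-traced cells, 1 in non-dividing cells, 1 for genotype by phase (0), 0 for differentiated against stem-like cells (6), 3 in the lineage-traced classes (6) and 2 for genotype by experiment. By the DESeq2 Wald test they were 2 in all Lgr5+ cells and 1 in lineage-traced replicating cells (4). With cycle limits set stricter, lineage-traced replicating cells gave 2, non-dividing cells 2 and genotype by phase 1. In stem-like cells alone, an alternative chosen after seeing the data, replicating against non-dividing cells gave 20 in Lgr5+ (42) and 3 in lineage-traced libraries (25). With the highest Paneth limit of the 4 lineage-traced libraries used for all, also chosen after seeing the data, the classes gave 3 (6).

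The deviations of same-numbered libraries correlated at 0.01 in the Lgr5+ and 0.31 in the lineage-traced experiment, over 2 pairs each, which does not show a pairing. With the replicate block, the counts were 1 in Lgr5+ non-dividing cells, 2 in the Lgr5+ classes, 18 in all lineage-traced cells and 5 in lineage-traced non-dividing cells, and 1, 1, 5 and 7 in all Lgr5+ cells, Lgr5+ replicating cells, lineage-traced replicating cells and lineage-traced classes.

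With 1 library left out, the Lgr5+ counts ran from 0 to 2 in all cells, 1 to 2 in replicating cells, 0 to 3 in non-dividing cells, 39 to 41 and 46 to 50 for replicating and G2/M against non-dividing cells, 0 to 0 for genotype by phase, 10 to 15 for differentiated cells and 0 to 2 within classes. The lineage-traced counts ran from 0 to 9, 0 to 5, 0 to 3, 21 to 29, 34 to 39, 0 to 1, 2 to 6 and 1 to 7 in the same order, and genotype by experiment from 0 to 13. Where 1 library was left in a group, it was taken to vary like the other group.

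The shares of cells with a member UMI fell on thinning from medians over the 4 libraries of 90.9%, 98.7% and 89.5% to 48.8%, 71.7% and 41.0% in Lgr5+ replicating, G2/M and non-dividing cells, and from 79.4%, 89.5% and 65.1% to 46.7%, 58.9% and 40.3% in the lineage-traced cells. In the comparisons of genotypes within classes, 5 to 15 members passed the filter on low counts in the Lgr5+ and 6 to 14 in the lineage-traced libraries, and the others have no value there.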
